A study of Homo sapiens with 3 samples.

Results

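The VCaP–ENZ48 library, a Drop-seq library of VCaP cells exposed to 10 µM enzalutamide (ENZ) for 48 h, was divided by the RNA content of its cell barcodes. RNA content was taken as the number of unique molecular identifiers (UMIs) counted per barcode. Barcodes with at least 300 detected genes and at most 25% of UMIs in mitochondrially encoded (MT-) genes were kept, which left 947 of the 1000 barcodes in the library and of the 3000 in the series. The low group held the 291 barcodes of 2000 to 7000 UMIs, and the high group held the 278 barcodes of 15000 to 35000 UMIs. The other kept barcodes lay below 2000 UMIs (30), between the groups (273) or above 35000 UMIs (75). VCaP is a prostate cancer cell line that carries a fusion of TMPRSS2 and ERG, and ENZ is an inhibitor of the androgen receptor. The other Drop-seq libraries, used here only for comparison, were VCaP parental (VCaP after 48 h in the vehicle, 0.1% DMSO) and LNCaP–ENZ168 (LNCaP, another androgen-responsive prostate cancer line, after 168 h in 10 µM ENZ). There was 1 library per condition, so every value below describes barcodes of single libraries, and no test between conditions could be made.

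The groups were set by total UMIs, so the total and everything that scales with it (such as the number of genes detected) differed by choice and is not a result. The barcodes nearest the limits had 1951 and 2004 UMIs at the lower limit of the low group and 6993 and 7001 at its upper limit. At the high group the nearest barcodes had 14963 and 15004 UMIs, and 34758 and 35025 UMIs. The low group summed to 1351533 UMIs (median 4766 per barcode) and the high group to 6239705 UMIs (median 21699.5). Less RNA in a cell and a lower capture of the same RNA on a bead cannot be told apart from these counts.

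In Drop-seq, a cell is lysed in a droplet with 1 bead, the bead's oligonucleotides capture polyadenylated RNA, and each oligonucleotide carries a barcode shared by the bead and a UMI of its own. The cytoplasm holds most mRNA, while MALAT1 RNA stays in the nucleus, mitochondrial transcripts lie inside mitochondria, and mRNAs for membrane and secreted proteins are translated by ribosomes bound to the endoplasmic reticulum (ER). The composition of a barcode's UMIs is described below by these classes of RNA. Whether it follows from the RNA pools held by a barcode or from the expression of its genes was not tested. A barcode is read as 12 bases. Where a bead lacks a base of its barcode, the first base of the UMI slides into the barcode read, and the Drop-seq software is known to write N in place of the last base. The sources used here do not state what N means in these tables, so this reading of a barcode ending in N is taken from the software and not from the data.

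The barcodes below show how an N barcode may relate to a complete one. They are chosen because an N barcode turned into a barcode ending in a base of the same library when 1 base was put back. The capital in the complete barcode marks a base whose removal gives the N barcode, and the capital N stands at its end.
VCaP–ENZ48 complete barcode: tccgctCccacg
VCaP–ENZ48 N barcode: tccgctccacgN
LNCaP–ENZ168 complete barcode of pair A: cAgacgttgctt
LNCaP–ENZ168 N barcode of pair A: cgacgttgcttN
LNCaP–ENZ168 complete barcode of pair B: ctgacatAttcc
LNCaP–ENZ168 N barcode of pair B: ctgacatttccN
The VCaP–ENZ48 pair is the only one in that library. Its complete barcode had 11176 UMIs and its N barcode 27434 UMIs. The marked base is the first of a run of C that starts at position 7 from the 5′ end. Which C of the run would be missing cannot be told. Such a pair was found for 1 of the 869 N barcodes of VCaP–ENZ48 before filtering, for 0 of 860 in VCaP parental and for 47 of 212 (22.2%) in LNCaP–ENZ168. Between libraries, N barcodes of VCaP–ENZ48 gave 2 such matches with LNCaP–ENZ168 and 0 with VCaP parental. Those of LNCaP–ENZ168 gave 0 with either VCaP library. The 1 pair of VCaP–ENZ48 therefore cannot be told from a match between unrelated barcodes. Thus nearly all N barcodes of VCaP–ENZ48 had no complete counterpart among the 1000 barcodes of the library. VCaP–ENZ48 shared 1 barcode with each of the other libraries, and 0 of these lay in the low or high group.

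Barcodes ending in N made up most of both groups and a larger share of the low group. In the low group, 270 of 291 barcodes ended in N (92.8%, exact Clopper-Pearson 95% interval 89.2 to 95.5%) and 21 ended in a base. In the high group, 226 of 278 ended in N (81.3%, 76.2 to 85.7%) and 52 ended in a base. All intervals in the text are 95% intervals that cover counting error only. Across the bands of depth, the N share was 93.3% below 2000 UMIs, 91.6% between the groups and 61.3% (49.4 to 72.4%) above 35000 UMIs, so it was lowest among the deepest barcodes. Seen from the other side, the low group took 32.9% (29.7 to 36.3%) of the 820 kept N barcodes and 16.5% (10.5 to 24.2%) of the 127 kept barcodes ending in a base. The high group took 27.6% (24.5 to 30.8%) of the N barcodes and 40.9% (32.3 to 50.02%) of those ending in a base. The median depth was 10604 UMIs for N barcodes and 21506 UMIs for the others. The same order was seen in the other libraries at their own levels. The N share of VCaP parental was 86.2% at 15000 to 35000 UMIs and 71.4% above 35000 UMIs, and that of LNCaP–ENZ168 was 22.7% at 2000 to 7000 UMIs and 6.67% at 15000 to 35000 UMIs.

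Both groups carried the markers of VCaP. All 13 VCaP marker genes were detected in each, at 9782 CPM (UMIs scaled to the same total in each group) in the low and 9124 CPM in the high group. KLK2, a kallikrein made by luminal prostate cells, led the list. The list is not exclusive to VCaP. In LNCaP–ENZ168 barcodes of 2000 to 7000 UMIs it summed to 2480 CPM, with 3 of 13 at 0 and FOLH1 leading at 1044 CPM. The 5 LNCaP markers summed to 34.0 CPM and 22.4 CPM, nearly all of it the membrane peptidase MME (30.3 and 19.2 CPM), against 5203 CPM in LNCaP–ENZ168 barcodes of 2000 to 7000 UMIs. Of 10 leukocyte markers, 9 were at 0 in the low and 7 in the high group, with summed levels of 0.740 and 3.21 CPM. Of 10 fibroblast markers, 9 and 3 were at 0 and the list summed to 31.8 and 30.6 CPM, most of it the proteoglycan gene LUM. The 6 endothelial markers summed to 1.48 and 0.801 CPM and the 6 erythroid markers to 5.92 and 6.09 CPM. The 13 neuroendocrine markers summed to 650 and 647 CPM. Their part in the differences described next was not tested.

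With each barcode thinned to 2000 UMIs, the median number of genes was 928 in the low group (quartiles 877 and 1009.5) and 1009 in the high group (957 and 1057.75), against 1689 and 4829.5 without thinning. Most of the difference in detected genes thus went with depth. MT- genes took 10.5% of UMIs in the low group (10.4 to 10.5%) and 7.01% in the high group (6.99 to 7.03%), within the 25% limit that the selection set. The medians over barcodes, 8.37% and 6.56%, lay closer together than the summed shares. The low group also had more barcodes with a high share. More than 10% of UMIs were MT- in 113 of 291 low barcodes (38.8%, 33.2 to 44.7%) and in 16 of 278 high barcodes (5.76%, 3.33 to 9.18%). The selection limit itself fell on the low group, since 45 barcodes of 2000 to 7000 UMIs were removed by it and 0 of 15000 to 35000 UMIs.

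**Figure D1:**
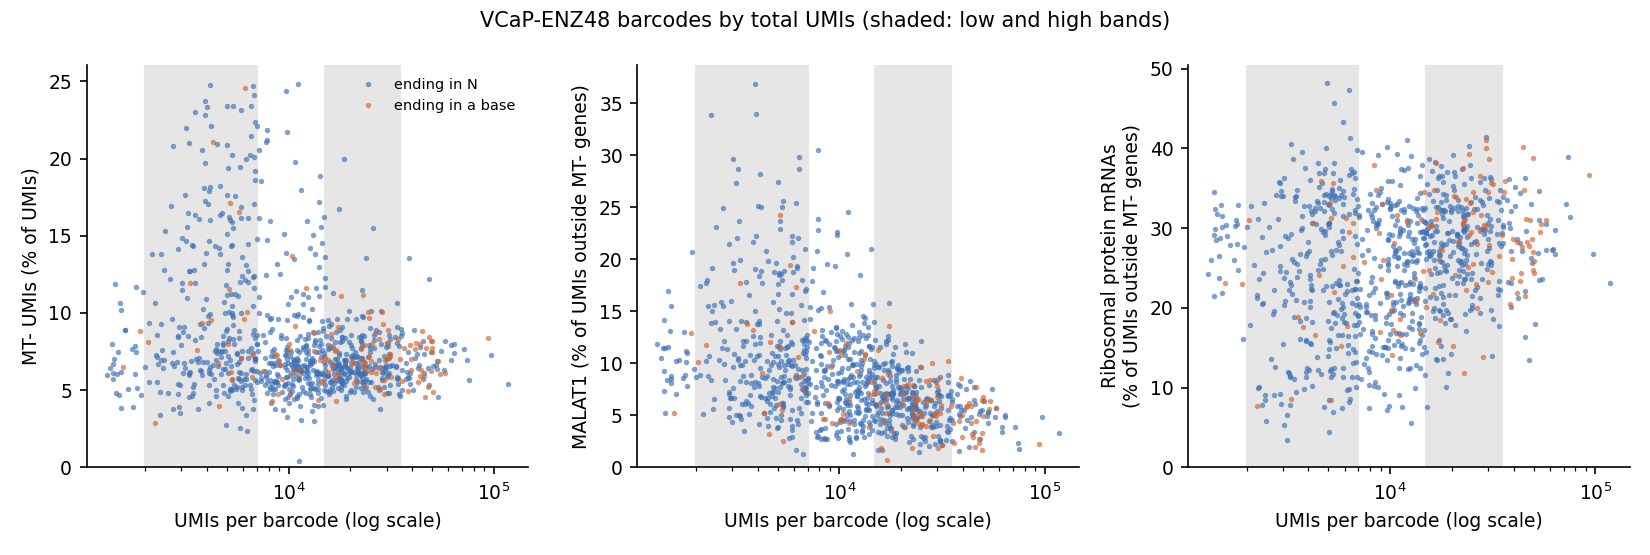
Each point is 1 kept VCaP–ENZ48 barcode, placed by its UMIs (log scale) against the share of UMIs in MT- genes (left), and against the shares of MALAT1 (middle) and of ribosomal protein mRNAs (right) among UMIs outside MT- genes. Shading marks the low and high groups, and colour the last letter of the barcode. The spread of all 3 shares is wide at 2000 to 7000 UMIs and narrower at 15000 to 35000 UMIs.

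Summed over barcodes, the groups differed little at most genes. Ratios are log2 of CPM + 1 in the low group over CPM + 1 in the high group. The 7836 genes whose mean over the groups reached 10 CPM had a median ratio of −0.10 (quartiles −0.28 and 0.14). At least 2-fold higher in the low group were 24 genes (0.306% of genes tested), and 45 were at least 2-fold higher in the high group (0.574%). None of these genes reached 50 CPM in either group, and none had more than 66 UMIs in the low group, so abundant genes differed by less than 2-fold. A smaller fold was therefore used for genes of at least 50 CPM in either group, of which there were 2839. At least 1.25-fold higher in the low group were 176 (6.2%), and 539 were at least 1.25-fold lower (19%). These counts describe 1 library and are not calls of a test.

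**Figure D2:**
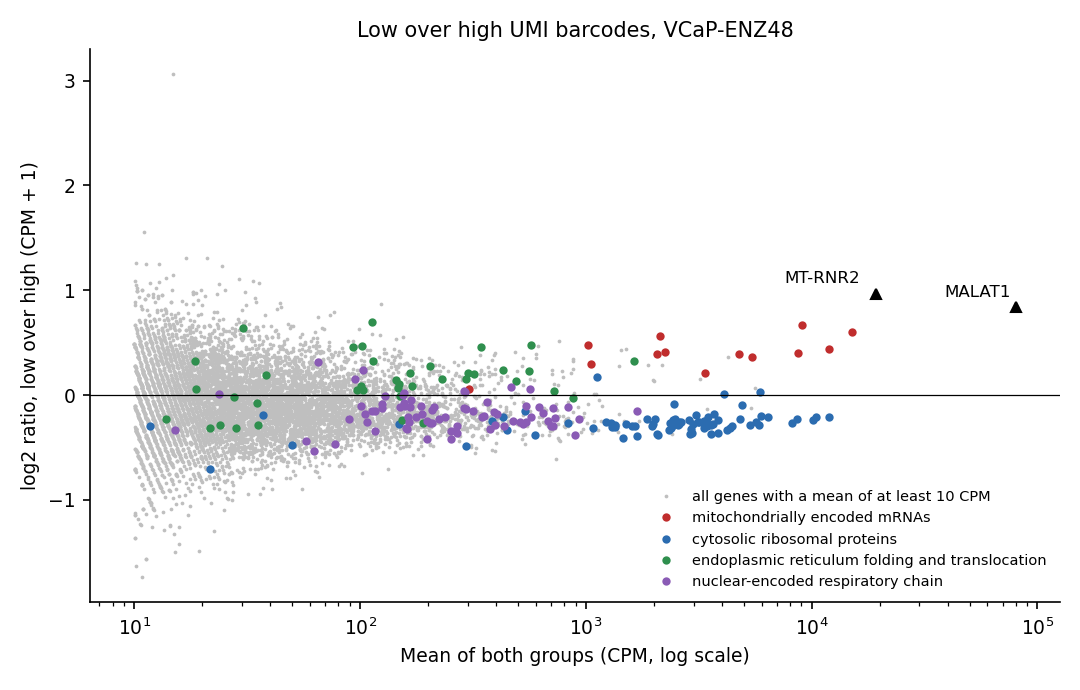
Each point is 1 gene of the 7836 tested, placed by its mean level in both groups (CPM, log scale) and by its log2 ratio of low over high. Coloured points are members of 4 gene lists, and triangles mark MALAT1 and MT-RNR2. Mitochondrially encoded mRNAs lie above 0 and ribosomal protein mRNAs mostly below 0, and the spread widens toward low levels.

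The highest ratio among genes of at least 50 CPM was that of a mitochondrial RNA, and MALAT1 had the largest gap in CPM of the 12 genes with the highest ratios. The mitochondrial large ribosomal RNA, MT-RNR2 (chromosome M, 1671 to 3229), was at 25588 CPM in the low and 13103 CPM in the high group, a log2 ratio of 0.97 (0.95 to 0.98). MALAT1 (chromosome 11, 65497640 to 65508073), a long noncoding RNA of nuclear speckles, was at 102645 CPM and 57508 CPM, a ratio of 0.84 (0.83 to 0.84). The coordinates are those of GENCODE 44 on GRCh38, a later annotation than the authors' on the same build. For MALAT1, thinned barcodes ranged from 1.15% to 32.6% of UMIs in the low group (median 9.35%) and from 0.450% to 12.2% in the high group (median 5.85%). The groups overlapped, yet 125 of 291 low barcodes (43.0%, 37.2 to 48.9%) lay above the 95th percentile of the high group. MT-RNR2 ranged from 0.25% to 13.1% (median 2.15%) and from 0.100% to 4.65% (median 1.13%) in the same order, and 114 low barcodes lay above the high group's 95th percentile. Reads of MT- genes can be shared with their nuclear copies, so their levels carry that uncertainty.

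The other 10 of these 12 genes were picked as the highest of 2839, and no theme was tested over them. IGFBP3, a secreted carrier of insulin-like growth factors, was at 161 CPM in the low and 87.7 CPM in the high group (0.87, 0.64 to 1.10). CTSF, a lysosomal cathepsin, was at 57.7 and 30.9 CPM (0.88, 0.50 to 1.29). CLSTN1, a calcium-binding membrane protein, was at 57.7 and 31.9 CPM (0.84, 0.46 to 1.24). These are differences of under 2-fold on at most 217 UMIs in the low group. SORL1 (a sorting receptor, 0.82), CD81 (a tetraspanin of the cell surface, 0.79), RCN2 (a calcium-binding protein of the ER lumen, 0.77) and MSMO1 (an ER enzyme of cholesterol synthesis, 0.74) followed. XBP1 encodes a transcription factor of the unfolded protein response, and its mRNA is itself processed at the ER membrane. It was at 140 CPM and 86.1 CPM (0.69, 0.45 to 0.94). SMPDL3A, a secreted phosphodiesterase, had a ratio of 0.67, and MT-CYB, the mitochondrially encoded cytochrome b, 0.66 (0.64 to 0.69).

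The 12 lowest ratios among genes of at least 50 CPM belonged to genes of varied roles. MCM4, a subunit of the replicative helicase, was at 28.1 CPM in the low and 53.2 CPM in the high group (−0.90, −1.44 to −0.43). ATAD2, a chromatin-bound ATPase with a bromodomain, was at 38.5 and 72.4 CPM (−0.90, −1.36 to −0.50). Their low counts, 38 and 52 UMIs in the low group, leave wide intervals. TWISTNB, a subunit of RNA polymerase I, had a ratio of −0.81, ZC3H8, a zinc finger protein, −0.79, and FYTTD1, an mRNA export adaptor, −0.79. The unnamed locus AC008429.2 had a ratio of −0.79, and the pseudogene RPL22P2, whose reads may belong to its parent gene, −0.72. HSDL2, a peroxisomal protein, had a ratio of −0.76, and G3BP2, an RNA-binding protein of stress granules, −0.75 (−1.07 to −0.45). TWF1, which binds actin monomers, had a ratio of −0.73, and APELA, a secreted peptide ligand, −0.72. HLTF, a DNA translocase of stalled replication forks, was at 101 and 165 CPM (−0.71, −0.98 to −0.45). The interval lay below 0 for each of these 12 genes, which picking the lowest of 2839 genes favours.

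Each gene list is given as its members' median ratio less that of all genes. Where an interval is shown, it is the counting interval of the member at the median. List counts at 1.25-fold stand beside 6.2% higher and 19% lower among all genes of at least 50 CPM. The 13 mitochondrially encoded mRNAs, which encode subunits of the respiratory chain and ATP synthase, had a median of 0.50 (0.47 to 0.53), and 10 of the 13 were at least 1.25-fold higher in the low group. Together they took 7.82% of UMIs in the low and 5.61% in the high group. MT-CO1 was at 18212 and 11967 CPM (0.61), and MT-CO3 at 13743 and 10131 CPM (0.44). The 76 nuclear-encoded subunits of the same complexes had a median of −0.10, with an interval that spanned 0 (−0.26 to 0.05). Of the 74 members of at least 50 CPM, 0 were at least 1.25-fold higher and 11 lower, and the 11 are a smaller share than the 19% lower among all such genes. UQCRB, of complex III, had a ratio of −0.38, ATP5F1E, of ATP synthase, −0.23, and COX8A, of complex IV, −0.15. The 65 mitochondrial ribosomal protein genes, also encoded in the nucleus, had a median of −0.18 (−0.45 to 0.07). Of 53, 0 were higher and 24 lower (45.3%, against 19% among all such genes).

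The 79 cytosolic ribosomal protein genes had a median of −0.18 (−0.23 to −0.12), and 76 of them had a ratio below 0. Most genes lay below 0 as well, since 39.1% of the 7836 tested had a ratio above it. The list took 22.02% of UMIs in the low and 26.1% in the high group. RPS18 was at 11078 and 12792 CPM (−0.21), RPS6 at 9679 and 11212 CPM (−0.21), and RPS19 at 9261 and 10955 CPM (−0.24). Ribosomal protein genes have many processed pseudogenes, and 210 tested pseudogenes of this kind had a median of −0.17. Over thinned barcodes the share of ribosomal protein mRNAs ranged from 3.20% to 46.7% in the low group (median 22.1%) and from 7.2% to 39.95% in the high group (median 26.9%). The spread of the low group reached past the high group at both ends, with 80 of 291 low barcodes (27.5%) below its 5th percentile and 14 above its 95th. Translation factors (36 tested) had a median of −0.14 (−0.33 to 0.04). Of 34, 0 were higher and 9 lower at 1.25-fold (26.5%, against 19% of all genes of at least 50 CPM).

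Lists of the secretory pathway had positive medians, but only that of ER folding and translocation had an interval above 0. The 39 tested genes of ER folding and translocation had a median of 0.23 (0.11 to 0.35). Of the 28 members of at least 50 CPM, 7 were higher by 1.25-fold (25%, against 6.2% of all such genes) and 0 lower. Among them, CALR (a lectin chaperone of the ER) was at 662 and 474 CPM (0.48), PDIA4 (a disulfide isomerase) at 119 and 85.6 CPM (0.47), and RPN2 (a subunit of the oligosaccharyl transferase) at 396 and 287 CPM (0.46). HSP90B1, the ER member of the HSP90 family, was at 1817 and 1448 CPM (0.33). Not every chaperone followed, since HSPA5 was at 731 and 709 CPM (0.04, −0.06 to 0.14) and CANX at 866 and 885 CPM (−0.03, −0.12 to 0.06). The 20 lysosome and autophagy genes had a median of 0.31 (−0.05 to 0.70), with 6 higher (40%) and 0 lower of 15. They included CTSD (0.66), the cathepsin D gene, GRN (0.58), which encodes the secreted progranulin, and NPC2 (0.55), a cholesterol carrier of the lysosome. The 7 tested genes of MHC class I presentation had a median of 0.47 with a wide interval (−0.12 to 1.06), and B2M, its light chain, was at 589 and 462 CPM (0.35). The 16 luminal epithelial markers had a median of 0.21 (−0.12 to 0.57). Of 12, 0 were lower and 4 higher (33.3%), among them the protease inhibitor SPINT2 (0.41) and the tetraspanin CD9 (0.39). The 22 genes of cholesterol and fatty acid synthesis had a median of 0.20 (−0.27 to 0.64), with FASN, the fatty acid synthase, at 0.52.

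The androgen-induced list, whose receptor ENZ blocks, had members with ratios of mixed signs, from −0.76 to 0.97. Its 26 tested genes had a median of 0.21 (−0.14 to 0.58). Of 16, 0 were higher by 1.25-fold and 2 lower (12.5%, against 19% of all genes of at least 50 CPM). KLK2 was at 3358 and 3027 CPM (0.15, 0.10 to 0.20), and FOLH1, a folate hydrolase of the cell surface, at 775 and 723 CPM (0.10). Reads of KLK2 can be confused with its near copy KLK3. FKBP5, a cochaperone of steroid receptors, was at 14.1 and 24.2 CPM (−0.74) on 19 UMIs in the low group. SLC45A3 (0.28), TMPRSS2 (0.41) and ERG (−0.21, −0.61 to 0.17) had intervals that spanned 0. The transcripts that distinguish VCaP by its fusion were thus not resolved between the groups at this depth.

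Stress and cell-cycle lists had medians from −0.16 to −0.01, with single members differing in both directions. Of 13 tested immediate early genes, the median was −0.16, with 1 higher and 5 lower of 9. FOS, a transcription factor induced within minutes of stimulation, was at 585 and 890 CPM (−0.61, −0.72 to −0.50), while NR4A1, a nuclear receptor of the same class, was at 85.8 and 60.1 CPM (0.51). DDIT3, induced by ER stress and amino acid shortage, was at 74.0 and 97.3 CPM (−0.39), and its list (12 tested) had a median of −0.01. The 58 tested S and G2M phase genes had a median of −0.08. At 2-fold, 1 of the 58 was higher and 3 lower, against 0.306% and 0.574% of all genes tested. At 1.25-fold, 0 were higher and 5 lower of 17. Both the immediate early and the cell-cycle counts lower exceed the 19% of all genes, on few members. MKI67 was at 22.2 and 13.6 CPM (0.67, 0.05 to 1.32) on 30 UMIs, and TOP2A at 65.9 and 53.5 CPM (0.29, −0.06 to 0.64). GAPDH, a glycolytic enzyme, had a ratio of −0.18, and ACTB, cytoplasmic actin, 0.02. The 15 tested long noncoding RNAs did not move together. Beside MALAT1, NEAT1, which builds nuclear paraspeckles, was at 2102 and 1920 CPM (0.13), and GAS5, a host gene of small nucleolar RNAs with a short-lived transcript, at 2086 and 2705 CPM (−0.37).

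Several of the remaining lists had medians between −0.08 and 0.05. They were −0.06 for glycolysis, −0.08 for cytosolic heat shock proteins, 0.05 for apoptosis and p53 response and −0.03 for splicing factors. Proteasome subunits were at −0.03, cytoskeleton at −0.03 and histones at −0.05. Nucleolar ribosome biogenesis was lower, at −0.16 (−0.304 to −0.0003), with 0 higher and 6 lower (37.5%) of 16 at 1.25-fold. Metallothioneins and antioxidant genes were at −0.12. The VCaP markers were at 0.19 (0.10 to 0.29) and the neuroendocrine markers at 0.24 (−0.15 to 0.76). The 6 genes chosen earlier from these libraries as higher after ENZ were at 0.32 (0.10 to 0.56). The list of genes lower after ENZ rested on 2 tested genes (0.64), and those of LNCaP and fibroblast markers on 1 each (0.73 and 0.33). The signatures that the study itself derived are not independent evidence here. Persist (11 genes tested) had a median of 0.47 (−0.10 to 1.04). It had 1 gene past 2-fold each way, against 0.306% higher and 0.574% lower among all genes tested. Its genes summed to 681 CPM in the low and 678 CPM in the high group. PROSGenesis (46 tested) had a median of 0.03, with 8 higher (29.6%) and 3 lower (11.1%) of 27 at 1.25-fold. Among all genes of at least 50 CPM these shares were 6.2% and 19%.

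Several of these list medians rested on the low barcodes with more than 10% MT- UMIs. The low group was split after the data had been seen into the 113 barcodes above 10% and the 178 at or below it, and each was set against the whole high group. For mitochondrial mRNAs the split fixes the direction, with medians of 1.28 and −0.32. For the other lists it does not. ER folding and translocation had a median of 0.74 (0.38 to 1.08) in the barcodes above 10% and −0.11 (−0.20 to −0.02) in the others. Lysosome and autophagy genes were at 0.81 and −0.01, luminal markers at 0.68 and 0.02, and MHC class I genes at 0.95 and 0.24. Cytosolic ribosomal proteins were at −0.61 (−0.67 to −0.54) and 0.03 (−0.04 to 0.09), translation factors at −0.56 and 0.01, and mitochondrial ribosomal proteins at −0.44 and −0.03. In the low barcodes with few MT- UMIs, the intervals of the lysosome (−0.33 to 0.30), luminal (−0.18 to 0.21), MHC class I (−0.31 to 0.76) and cytosolic ribosomal protein lists thus spanned 0, while mitochondrial mRNAs (−0.41 to −0.23) and ER folding lay below 0. The 2 kinds of low barcode had similar depth, with medians of 4976 UMIs above 10% and 4729 UMIs at or below it, and similar N shares of 93.8% and 92.1%.

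**Figure D3:**
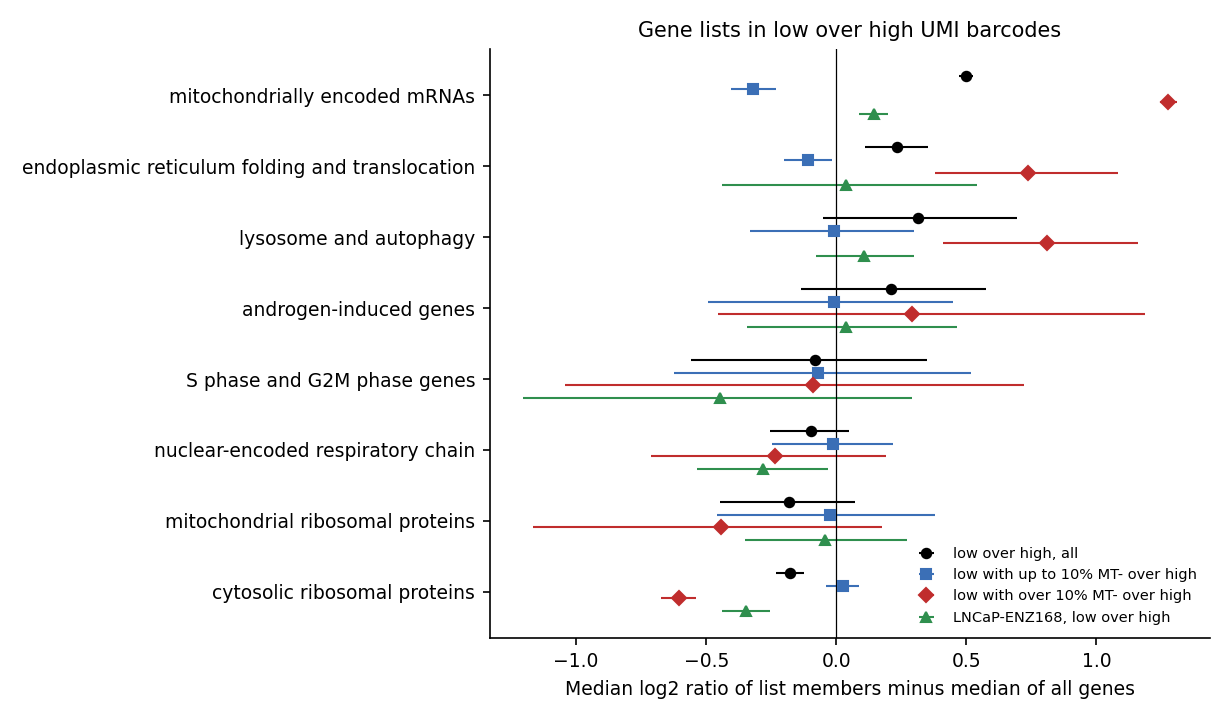
Points are the median log2 ratio of low over high of 8 gene lists, minus the median of all genes, and bars are the 95% counting interval of the member at the median. Black stands for all low barcodes of VCaP–ENZ48, red and blue for those above and up to 10% MT- UMIs, each over the whole high group, and green for LNCaP–ENZ168. Red points lie farthest from 0 for 6 of the 8 lists, and the blue point of mitochondrial mRNAs lies at −0.32.

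Single genes varied. CALR had a ratio over the high group of 1.14 in the low barcodes above 10% MT- and −0.22 in the others. CD81 was at 1.64 and −0.30, CTSF at 1.65 and −0.01, and HSP90B1 at 0.85 and −0.16. Other genes of high ratio were above 0 in both kinds, with SORL1 at 1.03 and 0.66 and IGFBP3 at 1.38 and 0.39. RCN2 was at 1.33 and 0.23, CLSTN1 at 1.46 and 0.20, and MSMO1 at 1.31 and 0.19. XBP1 was at 1.30 and 0.09 and SMPDL3A at 1.26 and 0.09, on 189 and 80 UMIs in the whole low group. No interval is given for these ratios. At the ribosome, RPS6 was at −0.70 and 0.04, and RPSA, another small-subunit protein gene, at −1.06 and −0.10. MALAT1 was likewise higher in both kinds of low barcode, at 1.18 and 0.56. It took 12.99% of UMIs in the low barcodes above 10%, 8.47% in the others and 5.75% in the high group. MT-RNR2 was at 1.52 and 0.44. ATAD2 (−0.80 and −0.96), G3BP2 (−0.91 and −0.65), HLTF (−0.82 and −0.64) and FOS (−0.88 and −0.45) were lower in both kinds, as were MCM4 (−1.21 and −0.72) and FYTTD1 (−0.95 and −0.69).

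Transcripts that encode proteins with a strongly hydrophobic stretch were examined together, because such a stretch (a membrane span or a signal peptide) directs a translating ribosome to the ER. For each gene with a protein in the annotation (6933 of 7836), the highest mean Kyte-Doolittle hydropathy of any 19 successive residues was computed from its canonical transcript. The median ratio minus that of all genes went from −0.12 for the 1167 genes under 0.8 through −0.05, 0.01 and 0.09 to 0.22 for the 504 genes of 2.0 to 2.4 and 0.26 for the 656 genes of 2.4 or more. Among genes of at least 50 CPM, 0.354% of the first class and 22.1% of the last were at least 1.25-fold higher in the low group, and 28.7% and 3.90% were at least 1.25-fold lower. CD81 (2.91), SORL1 (2.82) and CLSTN1 (3.27) belong to the last class, and ZC3H8 (−0.02), FYTTD1 (0.66) and TWF1 (0.67) to the first. Not all named genes followed the gradient. Among those of high ratio, XBP1 (1.03), SMPDL3A (1.27), IGFBP3 (1.47), CTSF (1.52) and RCN2 (1.58) were below 1.6, and APELA (2.14), of low ratio, was above 2.0. The gradient was present within each of 4 equal classes of protein length. In the shortest, of up to 256 residues, medians were −0.13 below 1.6 and 0.18 at 2.0 or more, and in the longest they were 0.08 and 0.27. Medians over 4 classes of transcript length spanned −0.07 to 0.07, and over 4 classes of GC content −0.04 to 0.09.

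The gradient was again carried by the low barcodes above 10% MT- UMIs. In these, the 6 classes went from −0.34 through −0.16, −0.04, 0.25 and 0.57 to 0.67. In the low barcodes up to 10% they stayed between −0.06 and 0.00. Within the barcodes between the groups, those above 10% (43) over those up to 10% (230) gave −0.23 in the first and 0.38 in the last class. Within the high group, the 16 barcodes above 10% over the other 262 gave −0.21 and 0.25. The pattern thus went with the MT- share at other depths of the same library too. In VCaP parental at 7000 to 15000 UMIs, 18 barcodes above 10% over 277 gave −0.18 and 0.13. In LNCaP–ENZ168 at 2000 to 7000 UMIs, 215 barcodes over 446 gave 0.02 and 0.05.

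**Figure D4:**
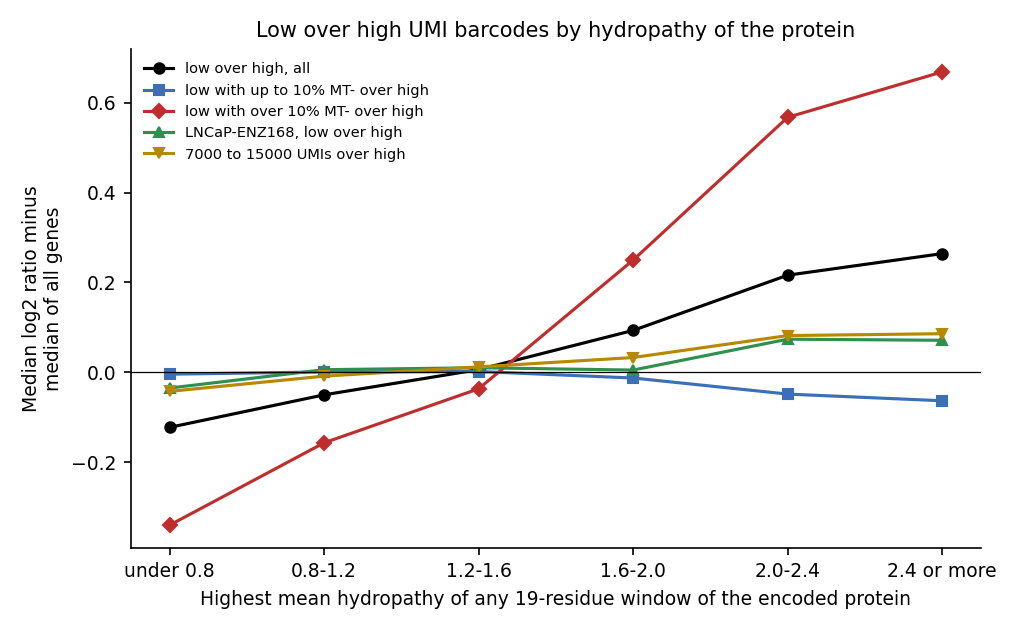
Genes are grouped by the highest mean hydropathy of any 19-residue window of their protein (horizontal axis), and points give the median log2 ratio of low over high minus the median of all genes. Lines stand for VCaP–ENZ48 with all low barcodes, those above and up to 10% MT- UMIs, and those of 7000 to 15000 UMIs, and for LNCaP–ENZ168. The line for low barcodes above 10% MT- goes from −0.34 to 0.67, and the line for those up to 10% stays between −0.06 and 0.00.

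Barcode by barcode, the low group showed a broad distribution of this class. The share of hydropathy 2.0 or more among UMIs of nuclear coding genes outside the ribosomal proteins had a median of 15.1% in the low group and 14.9% in the high group. In the low barcodes above 10% MT- the median was 24.1% (quartiles 15.7 and 27.5%), and in the others it was 14.2% (13.1 and 15.3%). The 95th percentile of the high group was 17.9%. Above it lay 81 of 291 low barcodes (27.8%, 22.8 to 33.4%), 45 of the 273 between the groups (16.5%) and 14 of 278 high barcodes (5.04%, which the percentile fixes). None of the 75 barcodes above 35000 UMIs did (0%, up to 4.8%), nor any of the 30 below 2000 UMIs (0%, up to 11.6%). Of all 291 low barcodes, 113 had more than 10% MT- UMIs and 270 ended in N. Among the 81, 75 had more than 10% MT- UMIs and 75 ended in N. Outside MT- genes, their median MALAT1 share was 18.5% and their median ribosomal protein share 12.4%, against medians of 6.23% and 28.4% over the high group.

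**Figure D5:**
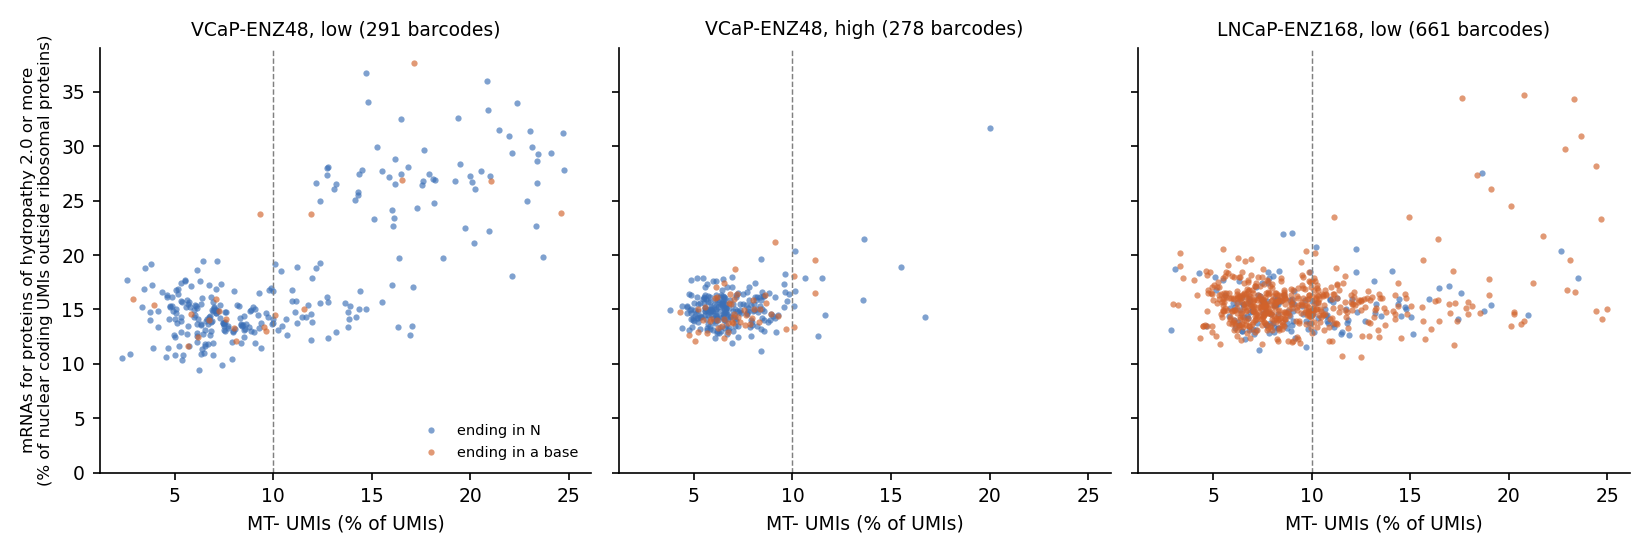
Each point is 1 barcode, placed by the share of its UMIs in MT- genes and by the share of mRNAs for proteins of hydropathy 2.0 or more among its nuclear coding UMIs outside ribosomal proteins, for the low and high groups of VCaP–ENZ48 and for LNCaP–ENZ168 at 2000 to 7000 UMIs. The dashed line stands at 10% MT- UMIs. In the low group, the median share is 24.1% to the right of the line and 14.2% to its left, and in LNCaP–ENZ168 it is 15.4% and 15.3%.

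Within the low group, shares of these classes of RNA were correlated across barcodes, in the same or in opposite directions. Over its 291 barcodes, thinned shares of MALAT1 and of ribosomal protein mRNAs had a Spearman correlation of −0.62, and those of mitochondrial and of ER folding mRNAs one of 0.52. Over the 278 high barcodes the values were −0.37 and 0.06. These are descriptions, since barcodes share a library and shares of 1 total are not independent of each other. The ER list had the same median in both groups per thinned barcode, 0.8%. The low group was wider at both ends, with 35 of 291 low barcodes (12.03%) above the high group's 95th percentile and 27 (9.28%) below its 5th.

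The groups were also split by the last letter of the barcode, within the same bands of depth. Median depth for N and base-ending barcodes was 4754 and 5134 UMIs in the low group, and 21267.5 and 24066.5 UMIs in the high group. Within the low group, N barcodes over the 21 ending in a base gave medians of 0.04 (−0.08 to 0.16) for mitochondrial mRNAs and 0.03 (−0.15 to 0.22) for cytosolic ribosomal proteins. ER folding, at 0.11, was not resolved (−1.34 to 2.04), nor were long noncoding RNAs, at 0.21 (−0.67 to 1.25). Within the high group the medians were −0.05 (−0.08 to −0.03), −0.09 (−0.15 to −0.03) and −0.10 (−0.33 to 0.14) for the first 3 lists. With N barcodes alone, the low over high medians were 0.50 for mitochondrial mRNAs, −0.16 for ribosomal proteins and 0.26 for ER folding, close to those of all barcodes. With the 21 and 52 barcodes that ended in a base, mitochondrial mRNAs were at 0.43 and ribosomal proteins at −0.29, but ER folding was at −0.05 (−1.73 to 1.24).

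The bands on either side placed the low group in a series. MALAT1 was at 99299 CPM below 2000 UMIs, 102645 CPM in the low group, 80194 CPM between the groups, 57508 CPM in the high group and 44832 CPM above 35000 UMIs. Mitochondrial mRNAs did not follow this order, with 35360, 78205, 59777, 56117 and 56309 CPM. ER folding genes were at 5543 CPM below 2000 UMIs and between 8645 and 9861 CPM in the other bands. The 30 barcodes below 2000 UMIs thus had MALAT1 as high as the low group but less of both mRNA lists. The 273 barcodes between the groups, set over the high group, had a median of −0.03 for mitochondrial mRNAs, −0.30 for cytosolic ribosomal proteins and 0.14 for ER folding.

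The other libraries gave a limited comparison at the same bands. VCaP parental had only 8 barcodes of 2000 to 7000 UMIs against 638 of 15000 to 35000, and its ribosomal protein median there was −0.11 (−1.24 to 0.81). With its 295 barcodes of 7000 to 15000 UMIs in their place, the medians were 0.07 for mitochondrial mRNAs, 0.07 for cytosolic ribosomal proteins and 0.05 for ER folding, and MALAT1 had a ratio of 0.01. The same contrast in VCaP–ENZ48 gave −0.03, −0.30 and 0.14 for the lists. LNCaP–ENZ168 had 661 barcodes in the low and 45 in the high band. Its medians were 0.14 for mitochondrial mRNAs, −0.35 for cytosolic ribosomal proteins and 0.04 for ER folding, and MALAT1 had a ratio of 0.17. Ribosomal protein medians were below 0 at low depth in both ENZ-treated libraries, which differ in cell line and time. That of VCaP parental, on 8 barcodes, was also below 0, with an interval that spanned 0. Within the low bands of the ENZ-treated libraries, ribosomal protein medians went opposite ways with the MT- share. Low barcodes above 10% MT- over the others gave −0.64 (−0.74 to −0.54) in VCaP–ENZ48 and 0.26 (0.19 to 0.32) in LNCaP–ENZ168. The differences between libraries were not tested. Exposure to ENZ and library cannot be told apart with 1 library per condition.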

How the data were processed

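Cells were trypsinized and encapsulated by Drop-seq, and per the study's methods the authors ran Drop-seq tools with default settings and 1000 expected cells on GRCh38. The deposited tables hold raw UMI counts per gene and barcode, 1000 barcodes per library. VCaP–ENZ48 held 14544855 UMIs over 28928 genes. The table was used as deposited, with no doublets identified or removed, and genes were matched to GENCODE 44 on GRCh38 by symbol. The members, the 35 gene lists and the rule for named genes were chosen with earlier results of these data known.

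Counts were summed over the barcodes of a group and divided by their total (CPM). Ratios used a pseudocount of 1 CPM and a minimum mean of 10 CPM. Exact conditional intervals of the ratio of counts leave out the pseudocount. Shares have exact Clopper-Pearson intervals. UMIs were counted, so amplification copies were collapsed, but cells are not replicates and no p-value was computed. Named genes were the 12 highest and 12 lowest ratios among genes that reached 50 CPM in the low or the high group. To these were added the 3 most abundant members of each main list and 18 genes chosen with earlier results of these data known. One of the abundant list members so chosen is not reported here. CALR, PDIA4, RPN2, CTSD, GRN, NPC2, B2M, SPINT2, CD9, FASN, NR4A1, RPSA, LUM, MME, TGM4, FAM8A1, NTS and PDCD2 were named after their values were seen. Thinning drew UMIs without replacement (seed 1).

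The alternatives were TMM scaling (edgeR 4.0.16), median-of-ratios size factors, totals without MT- and ribosomal protein genes, equal weight of cells, other pseudocounts, expression minimums, MT- limits and UMI bands, and barcodes by ending or without related barcodes. At most 10% MT- UMIs, 7000 to 15000 UMIs over the high group, the 1.25-fold limit, the splits by hydropathy, length and GC, and LNCaP–ENZ168 without related barcodes were added after seeing the data. The ratio script was tested on simulated data. Python 3.11.15, numpy 2.4.6, pandas 2.3.3, scipy 1.17.1 and R 4.3.3 were used.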

Additional observations from a re-analysis of the deposited data

Results flagged for a closer look

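The long noncoding RNA list (15 tested genes in VCaP–ENZ48) had a median ratio, minus that of all genes, of 0.17 in VCaP–ENZ48 and −0.21 in LNCaP–ENZ168 for 2000 to 7000 UMIs over 15000 to 35000 UMIs. It was picked out because the values have opposite signs in the libraries. The difference was not tested, since there is 1 library of each, and 8 of the 15 members had a ratio above 0 in VCaP–ENZ48 and 7 below 0.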

How the results depend on the processing

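No paired analysis was possible because low and high barcodes share 1 library, and no replicate could be left out. Genes at least 2-fold higher in the low group (24) and in the high group (45) numbered 58 and 87 with totals without MT- and ribosomal protein genes, 420 and 527 with a minimum of 1 CPM, 0 and 0 with 50 CPM, 5 and 9 with a pseudocount of 5 CPM, 50 and 81 with a low band of 3000 to 6000 UMIs, 1118 and 885 with barcodes ending in a base, 41 and 79 with at most 10% MT- UMIs, and 4 and 7 with 7000 to 15000 UMIs over high. The first count was 42 with a pseudocount of 0.1 CPM and 40 with no MT- limit.

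The mitochondrial mRNA median (0.50) was 0.43 with equal weight of cells, 0.47 with a minimum of 1 CPM, 0.55 with 50 CPM, 0.91 with no MT- limit and 0.43 with barcodes ending in a base, and turned to −0.014 with at most 15% MT- UMIs, −0.25 with at most 10% and −0.029 with 7000 to 15000 UMIs over high. The ribosomal protein median (−0.18) was −0.035 with at most 15%, 0.0046 with at most 10%, −0.29 with barcodes ending in a base and −0.30 with 7000 to 15000 UMIs. The ER median (0.23) was −0.0062 with at most 15%, −0.11 with at most 10% and −0.053 with barcodes ending in a base. The MT- share of the low group (10.5%) was 7.94% with at most 15%, 6.64% with at most 10%, 13.2% with no limit, 10.3% with barcodes ending in a base and 10.4% with equal weight of cells. That of the high group (7.01%) was 6.91%, 6.70% and, with 15000 to 25000 UMIs, 7.04%, and 7.23% and 6.95% for barcodes ending in a base and in N. Genes per barcode thinned to 1000 UMIs were 543 and 589.

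A gene or list is given here as turned only where its interval in the main comparison lay clear of 0. With at most 10% MT- UMIs, these turned sign: CD81 −0.18, MT-CO3 −0.21, RPS6 0.019, NEAT1 −0.26, HSP90B1 −0.16, ATP5F1E 0.031, FOLH1 −0.27, KLK2 −0.039, CCN3 −0.25, GAPDH 0.037, the LNCaP markers −0.72 and the genes higher after ENZ −0.042. With at most 15% they were MT-CO3 −0.020, NEAT1 −0.15, HSP90B1 −0.0023, FOLH1 −0.15, CCN3 −0.16 and the LNCaP markers −0.089. With barcodes ending in a base they were MCM4 0.33, APELA 0.10, HLTF 0.014, FOLH1 −0.44 and DDIT3 0.74. With 7000 to 15000 UMIs over high they were TWISTNB 0.12, FYTTD1 0.15, FKBP5 0.011, GAPDH 0.0010 and the LNCaP markers −0.34. With a minimum of 1 CPM the genes lower after ENZ were at −0.014. The shares of barcodes ending in N kept within their counting intervals under every alternative run. The median of all genes (−0.096) was −0.051 with at most 10% MT- UMIs and −0.025 with barcodes ending in a base. It turned to 0.034 with 7000 to 15000 UMIs over high. Other scalings moved the median of all genes by at most 0.012. Of all alternative values of named genes, 657 stayed within the counting interval, 159 moved beyond it and 24 turned sign. The 24 leave out genes whose main interval spanned 0. Some of those also changed sign, such as REG4 (from −0.26 to 4.23 with barcodes ending in a base). HSPA5 went from 0.04 to −0.45 with at most 10% MT- UMIs. Beyond what a limit on MT- UMIs does to MT- genes by construction, the cause of these changes was not tested. Genes under 50 CPM in the low group rest on few UMIs, which limits what these counts can show there.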

Other observations

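The gene with the highest ratio of all 7836 tested was TGM4, a transglutaminase secreted by the prostate. It was at 27.4 CPM in the low group (37 UMIs) and 2.404 CPM in the high group (15 UMIs), a log2 ratio of 3.06, and 1 low barcode held 29 of the 37 UMIs. FAM8A1 was next at 1.56, with 23 UMIs spread over 22 low barcodes and 32 UMIs over 27 high barcodes. NTS, the neurotensin precursor, had a ratio of 1.30, with 33 UMIs in 11 low barcodes and 58 UMIs in 12 high barcodes, of which 1 held 43. At the other end, PDCD2 had 6 UMIs in 5 low barcodes and 107 UMIs in 87 high barcodes (−1.74). TGM4 and NTS thus rested on few barcodes, and FAM8A1 and PDCD2 did not rest on a leading barcode.

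REG4, a secreted lectin, was at 57.0 CPM in the low and 68.3 CPM in the high group (−0.26, −0.63 to 0.09). In the high group, 1 barcode ending in N held 273 of the 426 UMIs (64.1%), and the next held 64. In the low group the leading barcode held 19 of 77 UMIs. PLA2G2A, a secreted phospholipase, was spread more widely, at 672 and 524 CPM (0.36, 0.25 to 0.46), and NPY, a neuropeptide, was at 136 and 106 CPM (0.36, 0.12 to 0.60). With at most 10% MT- UMIs in both groups, their ratios were 0.010 and 0.012.

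The 45 barcodes of 2000 to 7000 UMIs that the MT- limit removed had a median of 4264 UMIs. Of these, 42 ended in N, as did 270 of the 291 kept low barcodes. Mitochondrial mRNAs took 25.4% of the UMIs of the 45. Outside MT- genes, MALAT1 took 15.6% of UMIs, ribosomal protein mRNAs 18.04% and ER folding genes 1.79%. The low barcodes above 10% MT- UMIs that were kept had 15.5%, 18.98% and 1.58%, and the high group 6.18%, 28.1% and 0.930%.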
